A study of Canis lupus familiaris with 4 samples.

Results

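The genes described here encode the ligands, receptors and modulators of Wnt signalling in canine adipose tissue-derived mesenchymal stromal cells (MSCs), the plastic-adherent, matrix-producing progenitor cells of fat. They were chosen by gene symbol: every Wnt ligand, Frizzled receptor, secreted frizzled-related protein, Dickkopf, R-spondin, Axin and LGR receptor in the table, together with the co-receptors LRP5, LRP6, ROR1 and ROR2, beta-catenin, the TCF/LEF factors, NKD1, NKD2, FRZB and WIF1. The rule took 59 of the 30951 genes measured. Total RNA was sequenced from 4 primary cultures, 1 per dog, each untreated and kept for 48 h in multiwell plates in DMEM with 10% fetal bovine serum. All 4 belong to the same group, so no contrast between conditions exists, and differences between dogs include those between cultures and between libraries. The series title concerns the antimicrobial activity of the dried secretome of such cells.

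Wnt proteins are secreted lipid-modified ligands. In the canonical branch a Wnt binds a Frizzled and LRP5 or LRP6, which stops a complex built on Axin from destroying beta-catenin, and beta-catenin then acts with TCF/LEF factors in the nucleus. In the non-canonical branch ligands such as WNT5A act through Frizzleds and ROR1 or ROR2 on cell polarity and movement. In mesenchymal progenitors canonical Wnt signalling is known to favour bone over fat formation. Secreted antagonists bind the ligands (SFRPs, FRZB, WIF1) or LRP5 and LRP6 (DKK1), while R-spondins and LGR receptors keep Frizzleds at the surface. The roles named here are those known from human and mouse genes.

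Reads assigned to genes numbered 22411268, 16246965, 15203607 and 7474011 for dogs 1 to 4, so dog 4 was sequenced least. The stromal markers PDGFRB, PDGFRA, THY1, ENG and CD44 had at least 435 reads in every dog, whereas NT5E had 47, 20, 21 and 3. Markers of other cell types were in part present. The contractile genes ACTA2 (14023 to 41197 reads) and TAGLN (15936 to 44866) were read in every dog, as were VWF (12 to 380) and KDR (34 to 95) of endothelium and CSF1R (48 to 289) of macrophages. PECAM1 and EMCN of endothelium, AIF1 of macrophages, CDH1 of epithelium, CIDEC of adipocytes and RGS5 of pericytes had 0 reads in all 4 dogs. The level of a gene is its deposited log2 value minus the median of the detected genes of the same library, given as mean ± SD over n = 4 dogs. A gene was detected when at least 2 libraries held reads of it, which 17200 genes did. Of these, 36.8% had their highest level in dog 4, against 22.4%, 17.4% and 23.4% in dogs 1, 2 and 3. Levels were not divided by transcript length, so a call against the median gene also carries length, and so does the choice of the highest and lowest genes to name.

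Of the 59 genes, 46 were detected, 3 had reads in 1 library alone and 10 had none. In the whole series 17200 of 30951 genes were detected, and 13066 of the 17896 with a symbol. Of the 46, 12 passed the test for a level over 1 (log2), called above the median gene, 19 passed that for a level under -1, called below, and 15 were neither (limma, Benjamini-Hochberg over all detected genes). Among all detected genes 33.3% were above and 35.8% below, and among the 13066 detected genes with a symbol, from which the Wnt genes were chosen, 41.4% and 23.7%. The shares of the detected Wnt genes were 26.1% above and 41.3% below, and their median level was -0.54. The genes above were beta-catenin, AXIN1, 2 TCF factors, 3 co-receptors, 2 Frizzleds and 3 secreted antagonists. No ligand and no member of the R-spondin and LGR axis was among them. In the wider pathway, listed further on, 66 of 100 detected genes were above.

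**Figure D1:**
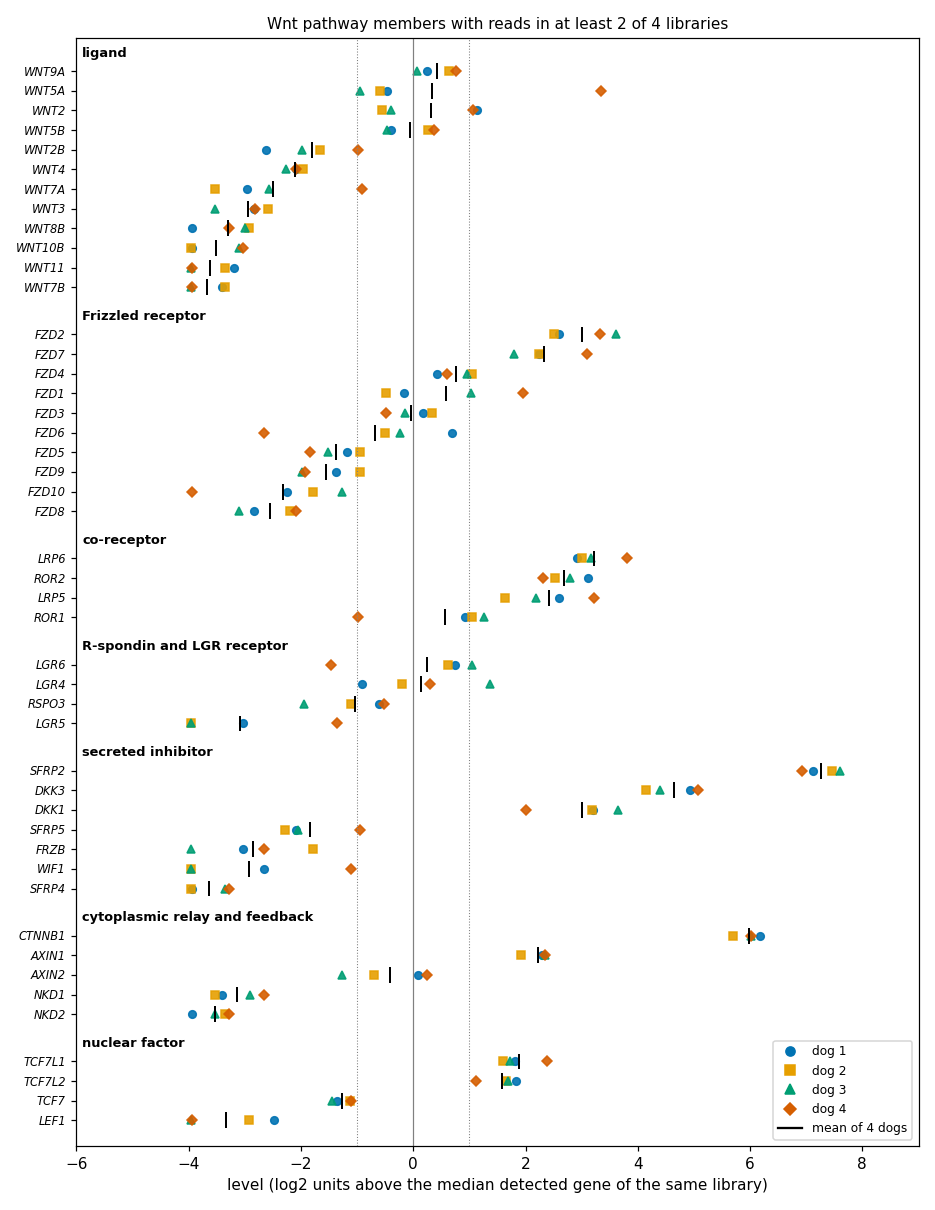
Level of each of the 46 detected Wnt genes (x axis, log2 distance to the median detected gene of its library) in dogs 1 to 4 (points), with the mean of 4 dogs (black bar) and the distance of 1 log2 unit (dotted lines). WNT5A lies at 3.34 in dog 4 and below 0 in the other dogs, whereas SFRP2 and CTNNB1 lie far above the median gene in every dog.

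No Wnt ligand passed the test for a level over 1, though WNT9A (0.43 ± 0.33) lay over the median gene in every dog. Of the 19 ligand genes, 12 were detected, with 8 below and 4 neither, and 7 were not detected. Among detected genes with a symbol 41.4% were above and 23.7% below. These are the shares to set beside the detected genes of each role. The 4 that were neither were WNT9A, WNT5A, WNT2 and WNT5B. WNT5A (ENSCAFG00000029321), the ligand best known for non-canonical signalling, had 1585 normalized reads in dog 4, against 94.8, 86.7 and 64.0 in dogs 1, 2 and 3. Normalized reads are reads divided by the size factor of the library. Dog 4 stood far above the other dogs, whose values lay close together. This made 731 reads of WNT5A in the shallowest library, where the deeper ones held 132, 94 and 67, and dog 4 exceeded the median of the other dogs 18.3-fold. The mean level of 0.33 ± 2.02 thus describes no single dog: it was -0.67 without dog 4.

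The ligand genes together gave 2490 normalized reads in dog 4, against 736, 657 and 472 in dogs 1, 2 and 3. Without WNT5A the sums were 904 in dog 4, against 641, 570 and 408. Dog 4 thus had the highest sum with or without WNT5A. WNT2, a canonical ligand, had 329, 89.5, 102 and 310 normalized reads in dogs 1 to 4, high in dogs 1 and 4 and low in dogs 2 and 3. WNT9A, a ligand with roles in joint and skeletal development, was steadier, with 167, 232, 149 and 249. WNT5B, the close relative of WNT5A, had 101, 173, 97.4 and 184 and showed no excess in dog 4 like that of WNT5A. Its level was -0.06 ± 0.43.

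Among the ligands below the median gene, WNT7A had 65.1 normalized reads in dog 4, against 5.03, 0.923 and 10.5 in dogs 1, 2 and 3. That is 30 reads in dog 4, against 7, 1 and 11, so the values outside dog 4 rest on few counts. Its level was -2.49 ± 1.13 (adjusted p = 0.0033 by limma). WNT2B (-1.81 ± 0.68) had 9.34, 32.3, 22.9 and 60.7 normalized reads in dogs 1 to 4. Its call was lost without dog 1, where the level was -1.54 (adjusted p = 0.0864 by limma). WNT4 (-2.10 ± 0.12), a ligand of the developing kidney and gonad, was nearly level over the dogs with 19.4, 23.1, 16.2 and 19.5. WNT3, WNT8B, WNT10B, WNT11 and WNT7B had 0 to 11 reads per library and levels of -2.94 to -3.67. WNT10B is a ligand known to hold back fat cell formation, and it had 4 reads in dog 3, 2 in dog 4 and none elsewhere. WNT8A had 1 read in dog 4 and WNT10A 1 read in dog 2. WNT1, WNT3A, WNT6, WNT9B and WNT16 had 0 reads in every dog. With 61335851 reads in all libraries together, a count of 0 still allows 0.0489 CPM (counts per 1e6 reads), a limit set at 3 reads that covers counting error only.

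All 10 Frizzled receptor genes, which encode the seven-pass receptors of Wnt ligands, were detected. FZD2 and FZD7 were above the median gene, FZD8, FZD9 and FZD10 were below, and 5 were neither. FZD2 had 940, 894, 1962 and 1574 normalized reads in dogs 1 to 4, higher in dogs 3 and 4 than in dogs 1 and 2. Its level was 3.01 ± 0.55 (adjusted p = 3.7e-06 by limma). FZD7, a receptor studied in stem and progenitor cells, had 726, 741, 536 and 1329 normalized reads, highest in dog 4, at a level of 2.34 ± 0.54. FZD4, which also binds the ligand Norrin, had 192, 311, 293 and 221 at a level of 0.76 ± 0.29.

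Other Frizzleds differed widely between dogs, and not in 1 direction. FZD1 had 594 normalized reads in dog 4, against 121, 95.0 and 307 in dogs 1, 2 and 3. FZD6, known for planar polarity in hair and skin, had 8.67 in dog 4, against 237, 94.1 and 117 in dogs 1, 2 and 3, and these 8.67 are 4 reads. FZD10 had 0 reads in dog 4, which allows up to 6.51 normalized reads there, against 15.8, 28.6 and 47.7 in dogs 1, 2 and 3. So in dog 4 FZD1 was at its highest and FZD6 and FZD10 at their lowest. FZD3 (-0.03 ± 0.36) and FZD5 (-1.38 ± 0.39) were neither. FZD9 had 42.4, 63.7, 22.9 and 23.9 normalized reads at a level of -1.56 ± 0.48. Its call was lost without dog 1 (-1.62), 3 (-1.42) or 4 (-1.44), with adjusted p-values of 0.0677, 0.141 and 0.0885 by limma. FZD8 (-2.55 ± 0.49) had 4 to 19 reads per library.

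The co-receptors LRP6, ROR2 and LRP5 were above the median gene in 4 of 4 dogs, and ROR1 was neither. LRP6, needed with a Frizzled to pass on the canonical signal, had 1182, 1277, 1425 and 2193 normalized reads in dogs 1 to 4 at a level of 3.22 ± 0.40 (adjusted p = 4.4e-07 by limma). LRP5, known for its part in bone mass, had 937, 483, 715 and 1464 at 2.41 ± 0.67. Both were highest in dog 4. ROR2, a receptor tyrosine kinase-like protein that binds WNT5A, had 1343, 904, 1090 and 766 at 2.68 ± 0.34 (adjusted p = 2.1e-06 by limma) and was lowest in dog 4. ROR1 (ENSCAFG00000018635), its relative, had 60.7 normalized reads in dog 4, against 281, 311 and 367 in dogs 1, 2 and 3. That is 28 reads against 391, 337 and 384, and dog 4 lay 5.12-fold below the median of the others.

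Of the 7 genes of the R-spondin and LGR axis, 3 were not detected, 1 was below the median gene and 3 were neither. RSPO1, RSPO2 and RSPO4, which amplify Wnt signals by sparing Frizzleds from degradation, had 0 reads in every dog. RSPO3 had 84.8, 55.4, 23.9 and 91.1 normalized reads in dogs 1 to 4 at a level of -1.04 ± 0.65, lowest in dog 3. LGR4, the R-spondin receptor with the widest tissue distribution, had 64.6, 121, 393 and 176, highest in dog 3 and lowest in dog 1. LGR6 (ENSCAFG00000010521), a marker of some epithelial and bone progenitors, had 39.0 normalized reads in dog 4, against 246, 228 and 312 in dogs 1, 2 and 3. Dog 4 was 6.31-fold below the median of the others. LGR5, the intestinal stem cell marker, went the other way, with 43.4 normalized reads (20 reads) in dog 4, 4.31 (6 reads) in dog 1 and 0 reads in dogs 2 and 3. It was below the median gene at -3.08 ± 1.23 (adjusted p = 0.00063 by limma).

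Of the 10 genes of secreted antagonists, 3 were above the median gene, 4 below and 3 not detected. SFRP2 (ENSCAFG00000008353), a soluble protein with a Frizzled-like domain that binds Wnts, had 30662, 30550, 32596 and 8856 reads in dogs 1 to 4. After scaling these are 22025, 28190, 31117 and 19206 normalized reads, a 1.62-fold range, and the level was 7.27 ± 0.31. Its paralog SFRP1 had 0 reads in every dog. SFRP4, another paralog, had 2 reads in dog 3 and 1 in dog 4. DKK3, a Dickkopf relative that does not bind LRP6 as DKK1 does, had 4834, 2843, 3352 and 5350 normalized reads at a level of 4.64 ± 0.44. DKK1, which blocks LRP5 and LRP6, had 616 normalized reads in dog 4, against 1441, 1438 and 2003 in dogs 1, 2 and 3. Its level of 3.01 ± 0.70 was above the median gene in every dog (adjusted p = 1.3e-05 by limma), though dog 4 was lowest.

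The remaining antagonists were low or absent. SFRP5, an adipose-derived factor in mice, had 62.9 normalized reads in dog 4, against 19.4, 15.7 and 21.0 in dogs 1, 2 and 3, at a level of -1.84 ± 0.61. Its call was lost without dog 2 (-1.70, adjusted p = 0.0553 by limma). WIF1, which binds Wnts outside the cell, had 25 reads in dog 4, 12 in dog 1 and 0 in dogs 2 and 3. FRZB, also called SFRP3 and best known from cartilage, had 6, 31, 0 and 4 reads in dogs 1 to 4. Neither gene had reads in every dog. DKK4 had 3 reads in dog 4 alone, and DKK2 had 0 reads throughout.

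Inside the cell, beta-catenin and AXIN1 were above the median gene and lay close together over the dogs, AXIN2 was neither, and NKD1 and NKD2 were below. Beta-catenin (CTNNB1), also a part of cell junctions, had 11502, 8359, 10388 and 10234 normalized reads in dogs 1 to 4 at a level of 5.98 ± 0.20. AXIN1, a scaffold of the destruction complex, had 756, 589, 802 and 787 at 2.23 ± 0.21, a little lower in dog 2 than in the rest. AXIN2, a feedback inhibitor and widely used readout of canonical signalling, had 147, 79.4, 47.7 and 169 at -0.41 ± 0.71, higher in dogs 1 and 4 and lowest in dog 3. NKD1 and NKD2, feedback inhibitors that act on Dishevelled, had 0 to 6 reads per library, at levels of -3.13 ± 0.41 and -3.53 ± 0.29.

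Of the nuclear factors, TCF7L1 and TCF7L2 were above the median gene, TCF7 was neither and LEF1 was below. TCF7L1, often a repressor in the absence of beta-catenin, had 538, 466, 513 and 809 normalized reads in dogs 1 to 4 at 1.88 ± 0.35. TCF7L2 had 543, 489, 502 and 323 at 1.57 ± 0.32. Dog 4 was highest for TCF7L1 and lowest for TCF7L2. Both calls were lost when the level was taken from the median of the genes with reads in all 4 libraries (1.06 and 0.75). TCF7, best known from T cells, had 43.1, 54.4, 40.1 and 54.2 at -1.26 ± 0.17. LEF1 had 16, 6, 0 and 0 reads at -3.33 ± 0.74.

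The spread between dogs was set against that of genes of similar level. None of the 46 detected genes passed the test of variability, nor did any of all detected genes (limma, F test against the trended prior, 0%, smallest adjusted p 0.21 among the Wnt genes and 0.0796 among all). At an unadjusted p under 0.05 stood 12 of the 46, or 26.1%, against 5.20% of all detected genes. They were WNT5A, WNT2, FZD1, FZD2, FZD6, LRP5, ROR1, LGR4, LGR5, LGR6, DKK1 and WIF1, that is 2 ligands, 8 receptors and 2 secreted antagonists. Without dogs 1, 2, 3 and 4 in turn the count was 12, 12, 11 and 6, the last against 4.84% of all detected genes. The median SD was 0.49 for the detected Wnt genes and 0.36 for all detected genes. These medians are not matched for level, as the Wnt genes lay lower (median level -0.54, against -0.02). Among all detected genes the median SD was 0.54 at levels of -2.5 to -2.0 and 0.24 at 2.0 to 2.5.

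**Figure D2:**
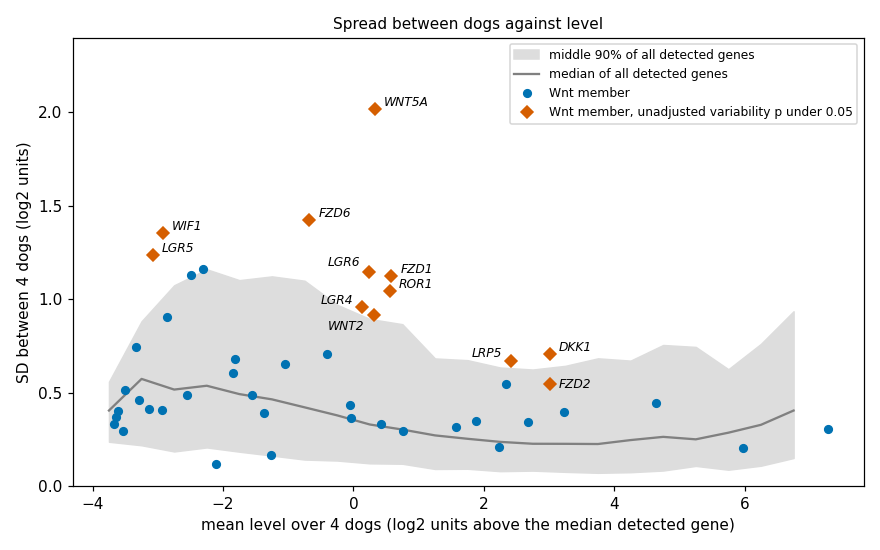
SD between the 4 dogs (y axis, log2 units) against mean level (x axis, log2 distance to the median detected gene) for the 46 detected Wnt genes (points) over the middle 90% of all detected genes in bins of level (grey). WNT5A has the widest SD among them at 2.02, and the diamonds mark the 12 genes with an unadjusted variability p under 0.05, none of which passed after adjustment.

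**Figure D3:**
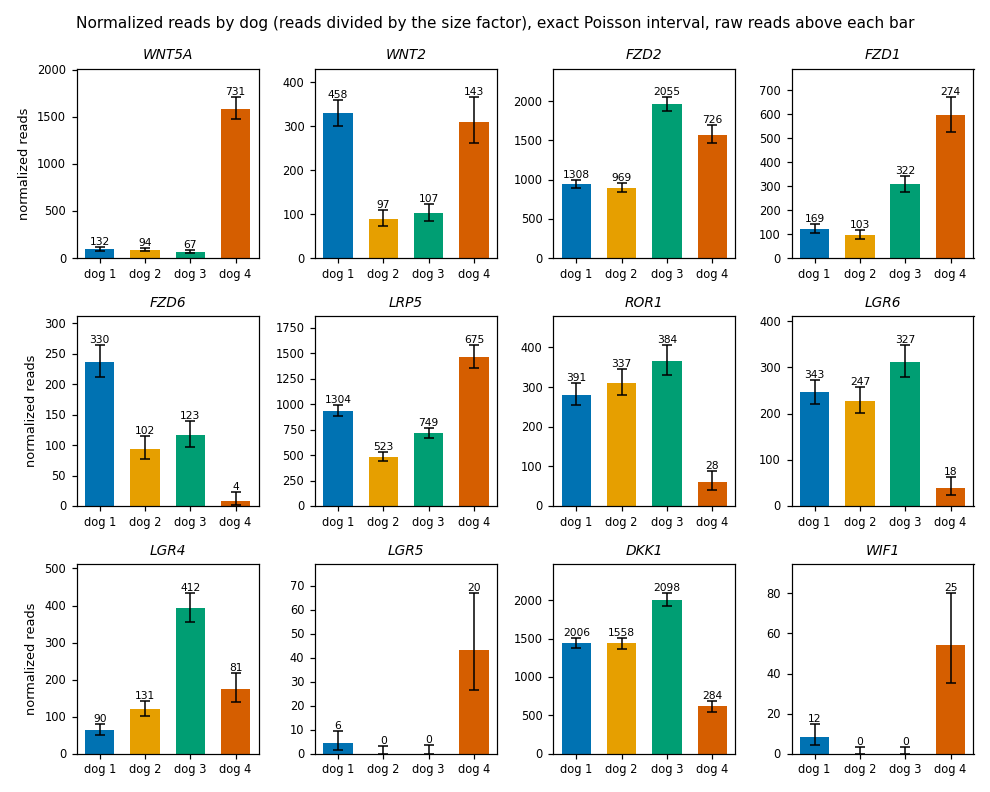
Normalized reads (y axis, reads divided by the size factor) of the 12 Wnt genes with an unadjusted variability p under 0.05 in dogs 1 to 4 (bars), with 95% exact Poisson intervals that cover counting error only and the raw reads above each bar. WNT5A, FZD1, LRP5, LGR5 and WIF1 are highest in dog 4, and FZD6, ROR1, LGR6 and DKK1 are lowest there.

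Dog 4 differed from the other dogs in both directions. In dog 4, 8 of the 46 genes lay more than 1 log2 unit above the median of the other 3 dogs, against 10.2% of all detected genes, and 6 lay more than 1 below, against 5.42%. The 8 were WNT5A, WNT2, WNT7A, FZD1, LRP5, LGR5, SFRP5 and WIF1, and the 6 were FZD6, FZD10, ROR1, LGR6, DKK1 and LEF1. LEF1 had no reads in dog 3 as well as in dog 4, where a lack of reads allows up to 6.51 normalized reads. For dogs 1, 2 and 3 the counts above were 4, 2 and 3, against 3.06%, 2.63% and 3.32% of all detected genes. The counts below were 2, 3 and 6, against 3.49%, 3.31% and 4.74%. By the gap of 1 dog to its nearest neighbour, 4 of the 46 genes had a dog standing apart (Dixon's ratio past its critical value for 4 samples), against 5.36% of all detected genes. Dog 4 stood apart and high for WNT5A, against 1.43% of all detected genes, and apart and low for ROR1 and LGR6, against 1.69%, and dog 2 was low for AXIN1. WNT5A was thus at its highest in the dog in which the receptor genes ROR1 and, over a range of 1.75-fold, ROR2 were at their lowest. This pattern was noted after the values were seen, in a single culture, and the dog cannot be told apart from its culture or library.

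**Figure D4:**
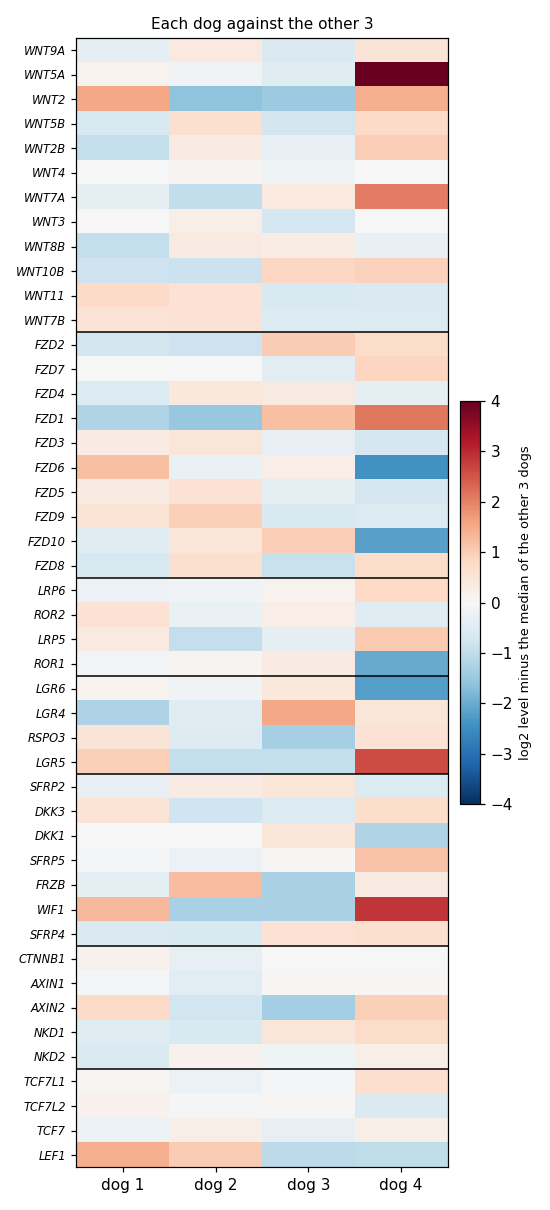
Level of each detected Wnt gene in each dog minus the median of the other 3 dogs (colour, log2 units), with genes in rows by role and dogs in columns. The strongest colours stand in the column of dog 4, red for WNT5A (3.94), WIF1 (2.85) and LGR5 (2.62) and blue for FZD6 (-2.43), LGR6 (-2.21) and FZD10 (-2.17).

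Other measures moved in dog 4 as well. The summed CPM of smooth muscle and pericyte markers (5 of 6 detected, RGS5 at 0) were 7272 in dog 4, against 2086 to 4071 in the others. Most of this came from ACTA2 (4117 CPM in dog 4, against 922 to 1838) and TAGLN (2765, against 1048 to 2002). CNN1 had 307 CPM in dog 4, against 44.3 to 157. MYH11 was nearly level, with 81.5 CPM in dog 4, against 69.1 to 73.4, and DES had at most 4 reads. The summed CPM of the 4 measured epithelial and mesothelial markers (2 detected, CDH1 at 0) were 58.2 in dog 4, against 1.34 to 1.84. In dog 4 this was KRT18 alone, with 435 reads, against 9, 9 and 25 in dogs 1, 2 and 3. UPK3B went the other way, with 20, 13, 3 and 0 reads in dogs 1 to 4. EPCAM had 1 read in dog 1 and 0 in the others. The stromal markers, all 6 detected, summed to 1175 in dog 4, against 1427 to 2106. PDGFRB, PDGFRA, CD44 and NT5E were lowest in dog 4, whereas THY1 and ENG lay within the range of the others. THY1 had 282 CPM in dog 4, against 170, 194 and 489 in dogs 1, 2 and 3. ENG had 58.2, against 45.0, 61.4 and 52.2. The sums of the 4 measured adipocyte markers (3 detected, CIDEC at 0) were 5.75 in dog 4, against 0.134 to 2.57. LEP gave 4.95 of the 5.75, with 37 reads. LPL had 0 reads in dog 4, against 0, 8 and 12 in dogs 1, 2 and 3. PLIN1 had 6 reads there, against 3, 0 and 23. The 6 endothelial markers (4 detected, PECAM1 and EMCN at 0) summed to 6.69 in dog 4, against 8.37 to 22.0. VWF was lowest there (1.61 CPM), whereas KDR (4.55 CPM) lay within the range of the others. The 4 myeloid markers (2 detected, AIF1 at 0) summed to 6.69 in dog 4, against 4.60 to 19.3. In a culture, fewer cells of a type and less RNA per cell cannot be told apart. The part of these markers and of the lower depth in the differences of dog 4 was not tested.

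The rest of the pathway, taken as 7 lists of genes outside the 59, lay mostly above the median gene. Of 109 measured genes, 66 were above, 16 below, 18 neither and 9 not detected. Among the 100 detected these are 66% above and 16% below, against 33.3% and 35.8% of all detected genes. The lists were chosen by symbol, with earlier results of these data known, so the comparison is descriptive only. Of detected genes with a symbol 41.4% were above and 23.7% below, which are also the shares to set beside the count of each list. The median level was 2.25 for the detected genes of the lists, against 0.79 for detected genes with a symbol and -0.02 for all detected genes. With levels taken from the median of the genes with a symbol, 55 of the 100 were above and 18 below, against 27.3% and 31.3% of the genes with a symbol. The proteins listed are shared by many cell types and by other pathways, so these counts describe the genes only.

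Of 7 measured genes for making and trimming the signal outside the cell, 3 were above and 2 below. Among detected genes with a symbol these shares were 41.4% and 23.7%. The heparan sulfatases SULF1 (6.32 ± 0.68) and SULF2 (2.84 ± 0.39), which free Wnts from proteoglycans, and the Wnt carrier WLS (5.10 ± 0.36) were above. The palmitoyltransferase PORCN, which lipidates every Wnt, was neither at 0.64 ± 0.28 and had 310, 208, 219 and 197 normalized reads. The Wnt deacylase NOTUM (-2.69 ± 0.53) and the glypican GPC3 (-3.03 ± 0.55) were below. Of 10 genes for receptor turnover and other receptors, 4 were above, none below, 2 neither and 4 not detected. The pseudokinase PTK7 (5.75 ± 0.33) of planar polarity, the Wnt-binding RYK (4.30 ± 0.13) and LRP4 (1.93 ± 0.25) were above. The DKK1 co-receptor KREMEN1 (1.09 ± 0.41) and the Frizzled ubiquitin ligase ZNRF3 (-0.32 ± 0.24) were neither, and its partner RNF43 had 10 reads in dog 2 alone. Of 7 other antagonists, TPBG (2.57 ± 0.25) and IGFBP4 (2.49 ± 0.57) were above, APCDD1 (-3.42 ± 0.45) and DKKL1 (-3.54 ± 0.54) below, and SOST and CER1 had 0 reads.

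Most genes of the cytoplasmic relay were above the median gene. Of 22 measured genes of the destruction complex and relay, 16 were above, 3 below and 3 neither. The casein kinases CSNK1A1 (5.37 ± 0.14) and CSNK1G1 (4.99 ± 0.21) and the scaffold APC (4.14 ± 0.19) were above, and FRAT2 (-3.17 ± 0.29) and CCDC88C (-3.27 ± 0.48) below. Of 17 nuclear partners of beta-catenin, 12 were above, 2 below and 3 neither. BCL9L (4.24 ± 0.39), the kinase TNIK (4.05 ± 0.29) and the acetyltransferase EP300 (3.93 ± 0.27) were above. The corepressor TLE2 (-1.86 ± 1.12) was below, but not without dog 1, 2 or 3, and SOX17 (-3.64 ± 0.37) was below.

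Of 26 measured genes of planar polarity and the non-canonical branch, 19 were above, 2 below and 5 neither. RHOA (5.04 ± 0.21), the kinase ROCK2 (4.82 ± 0.62) and PRICKLE1 (4.76 ± 0.42), a core polarity protein, were above. The polarity cadherins CELSR1 (-2.39 ± 0.73) and CELSR2 (-2.50 ± 0.63) were below. Of 20 measured textbook targets of beta-catenin, which other pathways also control, 10 were above, 5 below, 3 neither and 2 not detected. Among detected genes with a symbol 41.4% were above and 23.7% below. CD44 (5.46 ± 0.31), CCN4 (3.95 ± 0.69) and TCF4 (3.95 ± 0.17), a helix-loop-helix gene distinct from TCF7L2, were above, and FGF18 (-2.73 ± 0.94) and ASCL2 (-3.29 ± 0.13) below. The other 3 below were SOX9, TNFRSF19 and CCN5. Their calls were lost without dog 1 or 3, and that of TNFRSF19 also without dog 2, so that 2 targets were below without dog 1 or 3. EPHB2 was neither at 1.90 ± 1.49 and above without dog 4. CCN4, first described as a Wnt-induced gene, had 4234, 2421, 1335 and 2661 normalized reads in dogs 1 to 4, highest in dog 1 and lowest in dog 3.

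**Figure D5:**
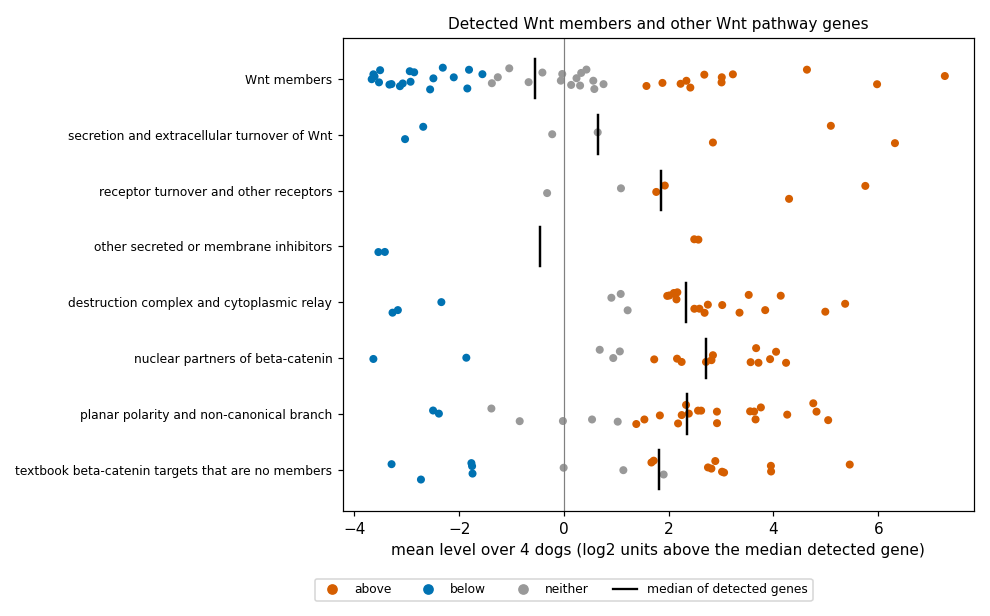
Mean level over 4 dogs (x axis, log2 distance to the median detected gene) of the 46 detected Wnt genes and of the detected genes in 7 lists of other pathway genes (rows), coloured by call, with the median of each row (black bar). The median is -0.54 for the Wnt genes and lies from -0.47 to 2.71 in the lists.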

How the data were processed

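The submitters' processing notes name the tools STAR 2.7.11a, DESeq2, Trimmomatic 0.39 and FastQC 0.12.1 and the genome CanFam3.1. Libraries came from 10 ng of total RNA with a stranded kit that depletes ribosomal RNA, per the labels' protocols. How reads were counted, whether strand was used and which annotation served is not given in the sources used here. All 59 genes matched the RefSeq table by symbol or synonym, and 18 overlap another gene there, in UU_Cfam_GSD_1.0, a different assembly, and 6 a protein-coding one (WNT5B, WNT2B, WNT8A, ROR1, AXIN1 and LEF1), so their reads are uncertain. The authors deposited log2 values after the variance-stabilizing transformation, 1 column per dog, matched by dog number; 0 columns were left unused.

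The transformation was inverted from its lowest value. In every library 100% of the values above it were whole reads within 0.01, giving size factors of 1.39, 1.08, 1.05 and 0.461. Tests ran on the deposited log2 scale in limma 3.58.1 (R 4.3.3): an intercept-only fit over 17200 detected genes, a trended prior, a distance of 1 log2 unit and a Benjamini-Hochberg threshold of 0.05. Variability was an F test of a gene's variance over the prior. Both were tested on simulated data. Replicates are separate dogs, with 1 library each, and no pair of libraries agreed within counting noise. Dixon's ratio, the distance of 1 dog to its nearest neighbour over the whole range, marked a dog as apart above 0.829. The Wnt genes and lists were chosen with earlier results of these data known. The rule named every Wnt gene with reads, with values per dog for the 3 highest of a role, for those standing apart and for those whose call 1 dog decides, and the 3 highest and 2 lowest detected genes of each list; other genes and values per dog were added after their values were seen. Differences of each dog from the median of the others were added after the data were seen. Gene lengths and sequences were not analysed here, so no value is per length.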

Additional observations from a re-analysis of the deposited data

Results flagged for a closer look

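In 4 of the 46 detected Wnt genes 1 dog stood apart from the rest, against 5.36% of all detected genes; with 4 samples chance alone gives about 5%. The gap to the nearest other dog, as a share of the range, was 0.887 for WNT5A, where dog 4 was high. It was 0.850 for ROR1 and 0.832 for LGR6, where dog 4 was low. For AXIN1 it was 0.862, with dog 2 low at 1.92, against 2.29 to 2.35 in the others. Dog 4 stood apart and high in 1.43% of all detected genes and apart and low in 1.69%.

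Among 100 detected genes of the other pathway lists, 3 stood apart. TLE2 was high in dog 4 (0.861), CELSR3 was high in dog 4 (0.834) and the receptor EPHB2 was low in dog 4 (0.850), with 108 normalized reads (50 reads) there, against 805, 1144 and 1019 normalized reads in dogs 1, 2 and 3. Summed normalized reads stood apart for the ligands (0.869, dog 4 high), for the R-spondin and LGR genes (0.855, dog 3 high at 729, through LGR4) and for all 59 genes (0.958, dog 3 high at 57045, mostly SFRP2). The summed CPM of epithelial and mesothelial markers stood apart in dog 4 (0.991), through KRT18 alone.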

How the results depend on the processing

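No paired analysis was possible because the labels give 1 group only. The comparison of paralogs within dogs and the level per kilobase were not run, because no transcript lengths were at hand. The count of Wnt genes above the median gene was 12 whichever dog was left out, and that below was 17 to 18. The variability test called 0 Wnt genes under every alternative it was run with, while among all detected genes it called 0, 4, 1 and 15 without dogs 1, 2, 3 and 4 in turn. With a distance of 2 log2 units in place of 1, 7 genes were above and 11 below. When reads in all 4 libraries were required, 8 were below, because 35 of the 46 were then tested. With no filter on low values 29 were below, since undetected genes enter. The shares of all genes called above or below under these settings are not given here, so these counts describe the Wnt genes only.

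Taking the median over the 13834 genes with reads in all 4 libraries, or over detected genes with a symbol, raised the zero of the level by 0.82 or 0.81. Genes just above 0, none of them called, then lay below it: WNT9A (-0.39 and -0.38), WNT5A (-0.49 and -0.48), WNT2 (-0.51 and -0.50), FZD4 (-0.067 and -0.055), FZD1 (-0.24 and -0.23), ROR1 (-0.26 and -0.25), LGR6 (-0.58 and -0.57) and LGR4 (-0.68 and -0.67). With these zeros TCF7L1 (1.06 and 1.07) and TCF7L2 (0.75 and 0.76) lost their calls, and FZD5, RSPO3 and TCF7 were below. On a log2 scale with a pseudocount of 1, FZD5 was below at -1.71. Leaving out each dog moved uncalled levels across 0: WNT5A ranged from -0.67 to 0.76, WNT5B from -0.20 to 0.075, FZD3 from -0.15 to 0.12, LGR6 from -0.028 to 0.81 and LGR4 from -0.27 to 0.49. Quantile normalization changed no call of the 46. The counts without each dog of the unadjusted variability test and the counts among genes with a symbol were added after the data were seen. Depth limits genes with few reads, such as FZD6 in dog 4.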
